A study of Mus musculus with 126 samples.

Results

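The 10 genes of fibroblast growth factor (FGF) and ERK signalling described here were followed through gene expression data from mouse embryonic stem cells in which DNA methylation, histone deacetylation or both were altered. They were chosen by name from the 23420 genes of the count table. They are the ligand gene Fgf4, the receptor genes Fgfr1 and Fgfr2, the inhibitor genes Dusp6, Dusp4, Spry2 and Spry4, the transcription factor genes Etv4 and Etv5, and the immediate early gene Egr1. The series holds 126 samples and asks how DNA methylation and histone acetylation each shape the binding of transcription factors. Its 8 RNA-seq libraries were used here, and the other 118 samples were not analysed here. The libraries form 4 groups of 2, which the series' design calls biological replicates. Wild type cells were J1, a mouse embryonic stem cell line, and the triple knockout (TKO) cells were Dnmt1-/-, Dnmt3a-/-, Dnmt3b-/- cells on the J1 background. Cells of each genotype received Trichostatin A (TSA), an inhibitor of histone deacetylases, at a labelled 5 ng/µl for 36 h, or its solvent DMSO at 0.0033% for the same time. In the 4 groups alike, growth was on gelatin in medium with serum and leukaemia inhibitory factor (LIF). Whether the TKO cells descend from 1 clone is not given in the sources used here.

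FGF ligands bind receptor tyrosine kinases together with heparan sulphate, and the receptors pass the signal through adaptors, Ras and Raf to the kinases MEK and ERK. Active ERK induces immediate early genes such as Egr1, the ETS factor genes Etv4 and Etv5, and a set of inhibitors that feed back on the cascade, among them the Sprouty proteins and the dual-specificity phosphatases. In mouse embryonic stem cells FGF4 is the chief source of this signal, acts on the cells that make it, and is known for preparing them to leave the self-renewing state.

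In these data Fgf4 was the member with the widest change: its RNA fell with TSA in both genotypes, by 6.71-fold in wild type and 4.92-fold in TKO cells. The feedback genes moved in both directions at the same time. Dusp6, Dusp4 and Fgfr2 rose with TSA in both genotypes, Etv5 fell in both, and Spry2 and Spry4 were called lower with TSA in TKO cells. Without the inhibitor, TKO cells held less Dusp4 and Dusp6 RNA than wild type cells. Etv4 and Egr1 passed the test in no comparison.

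Library totals ran from 13280631 to 15542527 counts. Levels are given in normalised CPM, a counts-per-million value whose library total was scaled by trimmed mean of M-values (TMM) factors, and 3 counts stood for 0.183 to 0.243 CPM. Differences are log2 fold changes with their standard error (SE), and calls were made where the adjusted p was below 0.05 in edgeR's quasi-likelihood test with Benjamini-Hochberg adjustment over 15822 genes. The targeted genes checked the labels: Dnmt1 stood at 360 to 464 CPM in wild type and 123 to 135 CPM in TKO libraries, Dnmt3a at 152 to 237 and 25.9 to 39.1 CPM, and Dnmt3b at 343 to 596 and 43.7 to 76.1 CPM. From which exons the remaining TKO reads come cannot be read from counts per gene. The 6 stem cell markers (Pou5f1, Sox2, Nanog, Zfp42, Esrrb and Utf1) summed to 2401 to 2651 CPM in wild type cells under DMSO, 1271 to 1453 under TSA, and in TKO cells 3149 to 3493 under DMSO and 1474 to 1766 under TSA. Of the marker lists of other cell types, 6 trophoblast genes summed to 44.0 to 65.1 CPM in the DMSO libraries and 169 to 257 CPM in the TSA libraries. The sum over 7 fibroblast genes was 83.0 to 111 CPM in wild type cells under DMSO, 86.0 to 94.7 under TSA, and in TKO cells 19.2 to 21.7 under DMSO and 43.4 to 55.8 under TSA. Primitive endoderm genes (6) summed to 7.21 to 9.40, 16.2 to 19.4, 29.8 to 30.4 and 38.1 to 46.8 CPM in the same order of groups, and mesoderm genes (6, with Mesp1, Hand2 and Tbx6 under 1 CPM throughout) to 15.0 to 24.3, 9.51 to 13.1, 4.52 to 5.09 and 15.3 to 16.5 CPM. Neuroectoderm genes (6) summed to 187 to 247 CPM in the DMSO libraries and 70.8 to 90.5 CPM in the TSA libraries, and primed epiblast genes (5) to 80.1 to 103 and 64.9 to 78.6 CPM. No marker of these lists was at 0 in all 8 libraries.

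The stretch of 250 bases before the annotated start is shown for 3 members, the member that fell most with TSA (Fgf4), the member that rose most with TSA (Fgfr2), and a member called lower in TKO cells under both treatments (Spry2). DNA methylation in mammals sits at CpG, so the CpG pairs are in capitals. The sequences come from RefSeq promoters on build GRCm38.p6, whose table of 32851 promoters (300 bases each, 250 before and 50 from the start on) held 5 of the 10 members by symbol, and each is written 5′ to 3′ on the strand of the gene.
Fgf4, chr7:144861136-144861385, plus strand: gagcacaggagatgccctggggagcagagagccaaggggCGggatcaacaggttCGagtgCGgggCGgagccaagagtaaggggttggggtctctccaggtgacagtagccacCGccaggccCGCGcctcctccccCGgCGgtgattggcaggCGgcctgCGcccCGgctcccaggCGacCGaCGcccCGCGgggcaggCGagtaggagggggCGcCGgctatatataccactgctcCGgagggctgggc
Fgfr2, chr7:130266809-130267058, minus strand: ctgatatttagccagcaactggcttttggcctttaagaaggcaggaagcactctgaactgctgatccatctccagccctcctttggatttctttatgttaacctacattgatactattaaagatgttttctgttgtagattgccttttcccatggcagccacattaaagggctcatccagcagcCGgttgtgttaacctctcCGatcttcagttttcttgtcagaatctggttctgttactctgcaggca
Spry2, chr14:105896820-105897069, minus strand: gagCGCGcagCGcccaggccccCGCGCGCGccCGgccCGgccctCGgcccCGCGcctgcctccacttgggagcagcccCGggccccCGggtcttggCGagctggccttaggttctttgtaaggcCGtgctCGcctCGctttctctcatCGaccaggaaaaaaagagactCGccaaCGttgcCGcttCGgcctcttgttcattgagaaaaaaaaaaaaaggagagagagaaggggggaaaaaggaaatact
The Fgf4 stretch holds 21 CpG and the Spry2 stretch 23, while the Fgfr2 stretch holds 2. Over the full 300 bases the counts are 28, 28 and 4, against a median of 7 over all promoters in the table. Dusp6, whose window is not printed, has 19 CpG, and Etv5 has 37 at the start used in the count table and 19 at a second start 1202 bases away. Methylation at these CpG was not analysed here.

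The search covered 6 motifs on both strands of the 300 bases, counting overlapping matches: the ETS core CCGGAA, the cAMP response element TGACGTCA, the E-box CACGTG, the GC box GGGCGG, the NRF1 core GCGCATGC and the CArG box that serum response factor binds. Fgf4 had 2 GC boxes and Etv5 had 3 at the start used in the count table, a motif found in 35.7% of all promoters. The Spry2 window had 1 ETS core, which 14.9% of promoters hold, and the Fgfr2 window 1 E-box, which 7.15% hold. No match to any of the 6 was found in the Dusp6 window or at the second start of Etv5. The cAMP response element (1.79% of promoters), the NRF1 core (2.71%) and the CArG box (1.63%) were in none of the 6 member windows. A match describes the letters of the window and no more.

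Set per kilobase of exon, so that genes can be ranked against each other, the members spanned a wide range. In wild type DMSO libraries Etv5 stood highest at 93.9 ± 2.5 CPM per kb (SD, n = 2), rank 942 of the 15822 genes tested. Fgf4 (60.4 ± 17) and Dusp6 (54.6 ± 2.8) followed and did not differ beyond their spread. Dusp4 (39.7 ± 9.7), Spry2 (39.4 ± 3.0), Spry4 (34.3 ± 4.6) and Etv4 (32.0 ± 4.2) formed a middle group in which neighbours lay within their spread. Fgfr1 (17.7 ± 2.6) and Fgfr2 (5.59 ± 0.31) came next, and Egr1 was lowest at 2.78 ± 0.093 CPM per kb, rank 10425. The order changed with TSA: in wild type TSA libraries Dusp6 was first at 84.8 ± 6.2 CPM per kb and Fgf4 had moved from rank 1693 to rank 7471 of the genes tested. In TKO DMSO libraries Etv5 (126 ± 3.1) and Fgf4 (91.5 ± 16) led, and in TKO TSA libraries Etv5 (63.0 ± 8.6) and Dusp6 (55.5 ± 11) led without differing beyond their spread.

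**Figure D1:**
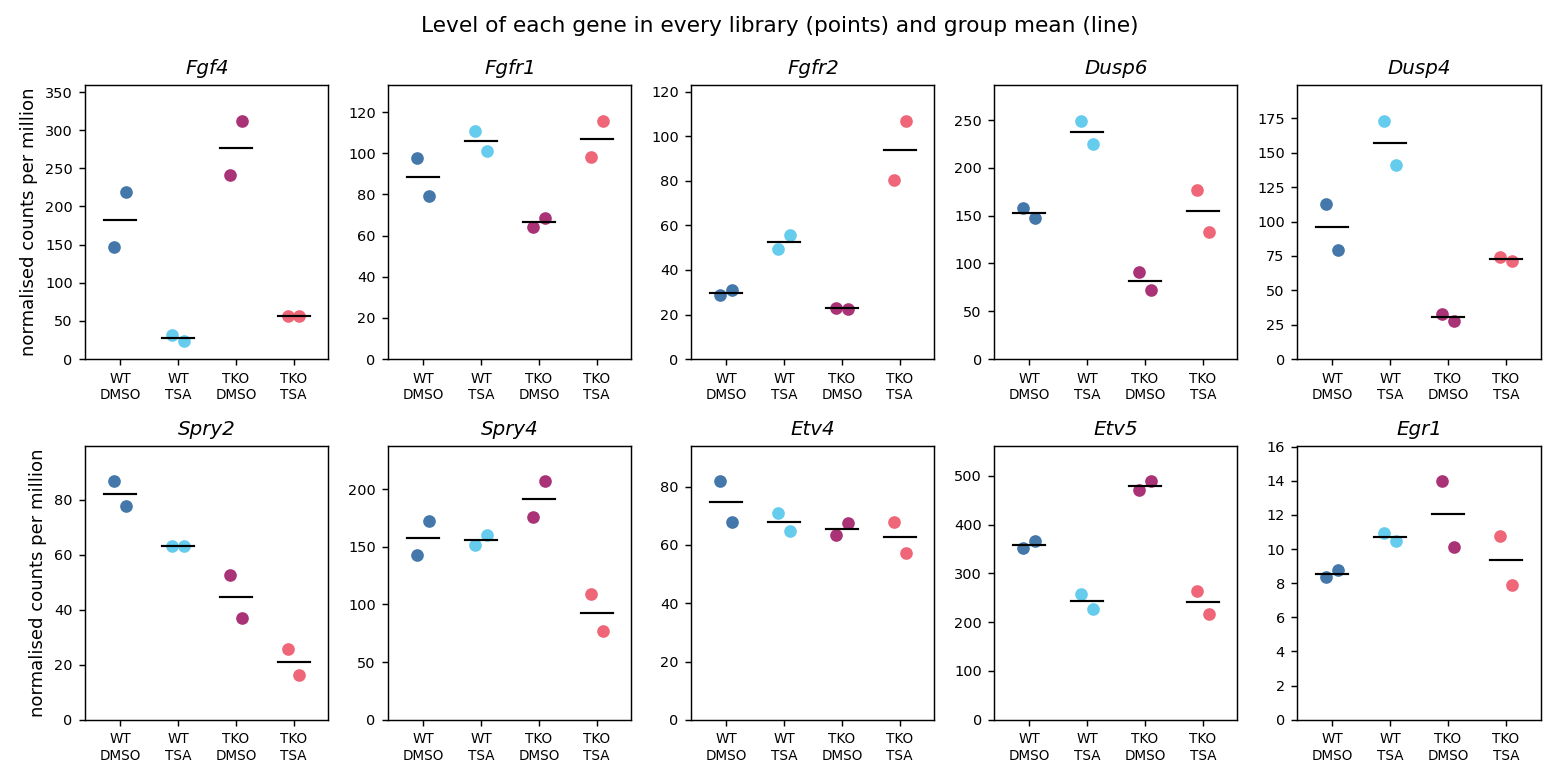
Normalised CPM of the 10 genes (vertical axis, linear from 0) in the 8 libraries, grouped by genotype and treatment. Points are libraries and lines are group means of 2. Fgf4 sits between 147 and 312 CPM in the DMSO libraries and between 23.4 and 56.8 CPM in the TSA libraries, while Etv4 stays between 57.3 and 81.8 CPM in all 8.

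Fgf4 encodes the FGF ligand that embryonic stem cells secrete. Its exons lie at chr7:144861386-144865243 on the plus strand (3 exons, 3030 bases; build mm10). Fgf4 stood at 147 and 219 CPM in wild type DMSO and at 30.9 and 23.4 CPM in wild type TSA libraries. In TKO cells it stood at 242 and 312 CPM with DMSO and at 56.8 and 55.8 CPM with TSA. The DMSO libraries were high and the TSA libraries low in each genotype, with no overlap, and within each treatment both TKO libraries lay above both wild type libraries. The TSA difference was -2.75 ± 0.20 in wild type (adjusted p = 8.23e-06) and -2.30 ± 0.19 in TKO cells (adjusted p = 5.59e-06). The genotype difference was 1.05 ± 0.20 with TSA (adjusted p = 0.00478) and 0.60 ± 0.18 with DMSO (adjusted p = 0.0376). The latter was not called without wild type DMSO replicate 1 (0.32, adjusted p = 0.257) or without TKO DMSO replicate 2 (0.40, adjusted p = 0.282). Stem cell markers moved along with Fgf4: 5 of the 6 listed were called lower with TSA in each genotype, beside 25.9% (wild type) and 27.9% (TKO) of all genes tested, and 3 were called higher in TKO than in wild type cells with DMSO, beside 9.63%. The part of that shift in the Fgf4 result was not tested, and in bulk RNA fewer cells of a type and less RNA per cell cannot be told apart.

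Receptor RNA was higher with TSA wherever the difference was called. Fgfr1, the main FGF receptor of embryonic stem cells (chr8:25518772-25575714, plus strand, 18 exons), stood at 97.6 and 79.3 CPM in wild type cells under DMSO, 111 and 101 under TSA, and in TKO cells 64.1 and 68.6 under DMSO and 97.9 and 116 under TSA. The low group was TKO DMSO, and the other groups lay close together. Fgfr1 rose with TSA in TKO cells by 0.69 ± 0.12 (adjusted p = 0.000711), and the wild type difference of 0.26 ± 0.12 was not called (adjusted p = 0.0958), though it was without wild type DMSO replicate 1 (0.42, adjusted p = 0.0262) and under total count scaling (0.46, adjusted p = 0.0102) or upper quartile scaling (0.41, adjusted p = 0.0156). With DMSO it was lower in TKO cells with a difference of -0.42 ± 0.12 (adjusted p = 0.0366). That call ended without wild type DMSO replicate 1 (-0.27, adjusted p = 0.215), TKO DMSO replicate 1 (-0.37, adjusted p = 0.192) or TKO DMSO replicate 2 (-0.46, adjusted p = 0.116), and under total count scaling (-0.39, adjusted p = 0.0506).

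Fgfr2, the receptor known for its role in primitive endoderm and trophoblast (chr7:130162451-130266808, minus strand, 19 exons), stood at 28.7 and 31.0 CPM in wild type DMSO and 49.4 and 55.7 CPM in wild type TSA libraries. In TKO cells it went from 23.0 and 22.6 CPM with DMSO to 80.3 and 107 CPM with TSA. The 4 groups did not overlap, and TKO cells held the lowest and the highest group. Fgfr2 rose with TSA by 0.81 ± 0.14 in wild type (adjusted p = 0.000786) and by 2.04 ± 0.14 in TKO cells (adjusted p = 2.55e-06). With TSA it was higher in TKO than in wild type cells by 0.84 ± 0.14 (adjusted p = 0.00218), while the difference with DMSO, -0.39 ± 0.15, was not called (adjusted p = 0.0888). It was called there without TKO TSA replicate 1 (adjusted p = 0.0455) or TKO TSA replicate 2 (adjusted p = 0.0465). Of the 6 trophoblast markers 5 were called higher with TSA in each genotype, beside 27.0% (wild type) and 30.8% (TKO) of all genes, and their sum was highest in the TKO TSA libraries (257 and 257 CPM). Most of that sum was Tfap2c, with group means of 124 CPM in wild type and 203 CPM in TKO cells under TSA, whereas Cdx2 was lower in TKO cells under TSA (6.06 against 23.2 CPM, called lower). The primitive endoderm sum was also highest in TKO TSA libraries (38.1 to 46.8 CPM). Unlike Fgfr2, it was higher in TKO DMSO libraries (29.8 to 30.4 CPM) than in wild type DMSO libraries (7.21 to 9.40 CPM). In that comparison 5 of its 6 genes were called higher and 0 lower, beside 9.63% and 10.7% of all genes. With TSA in TKO cells 2 were called higher and 0 lower, beside 30.8% and 27.9%. The part of these markers in the Fgfr2 result was not tested.

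The 2 phosphatase genes moved in the same directions. Dusp6 (chr10:99263231-99267489, plus strand) encodes a cytoplasmic phosphatase of ERK and is a widely used readout of FGF signalling. It stood at 158 and 147 CPM in wild type cells under DMSO, 249 and 225 under TSA, and in TKO cells 91.5 and 72.0 under DMSO and 177 and 133 under TSA. The TSA libraries lay above the DMSO libraries of their genotype, and the TKO DMSO libraries were the lowest of the 8. Dusp6 rose with TSA by 0.64 ± 0.14 in wild type (adjusted p = 0.00362) and by 0.92 ± 0.15 in TKO cells (adjusted p = 0.000308). It was lower in TKO cells with a difference of -0.90 ± 0.15 with DMSO (adjusted p = 0.00171) and with a difference of -0.61 ± 0.14 with TSA (adjusted p = 0.0135). The second of these was not called without wild type TSA replicate 1 (-0.54, adjusted p = 0.0958) or TKO TSA replicate 2 (-0.42, adjusted p = 0.108).

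Dusp4 (chr8:34807610-34819894, plus strand), which encodes a nuclear phosphatase of the same family, stood at 113 and 79.7 CPM in wild type DMSO and 173 and 141 CPM in wild type TSA libraries. In TKO cells it was 32.8 and 27.9 CPM under DMSO and 74.4 and 71.1 CPM under TSA. Each TKO group lay below both wild type groups. Dusp4 rose with TSA by 0.71 ± 0.16 in wild type (adjusted p = 0.00314) and by 1.26 ± 0.17 in TKO cells (adjusted p = 8.90e-05). Its genotype difference was -1.67 ± 0.17 with DMSO (adjusted p = 0.000101) and -1.11 ± 0.16 with TSA (adjusted p = 0.000971), and these 4 calls held in every alternative run. Fibroblast and mesoderm markers moved along with the 2 phosphatase genes in some comparisons but not in others. Of 7 fibroblast genes 4 were called lower and 1 higher in TKO cells with DMSO, and 3 lower and 1 higher with TSA. With TSA 6 of the 7 were called higher in TKO cells and 0 lower. In wild type 2 were called higher with TSA, Col1a2 (group means of 14.7 and 35.4 CPM) and Thy1 (4.47 and 15.4 CPM), and 2 lower, among them Acta2 (55.0 and 14.5 CPM), so that their sums overlapped. Of the 4 mesoderm genes tested, T (9.71 against 0.392 CPM) and Eomes (7.84 against 2.62 CPM) were called lower in TKO cells with DMSO. Under TSA, T was called lower in TKO than in wild type cells and Eomes higher. Between TSA and DMSO, 1 mesoderm gene was called lower and 0 higher in wild type, where both phosphatase genes rose. In TKO cells 1 was called higher and 0 lower. The shares of all genes called higher and lower with TSA were 27.0% and 25.9% in wild type and 30.8% and 27.9% in TKO cells. Of all genes, 9.63% were called higher and 10.7% lower between genotypes with DMSO, and 10.0% and 8.38% with TSA. The part of these markers in the Dusp4 and Dusp6 results was not tested.

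The Sprouty genes, which encode inhibitors of receptor tyrosine kinase signalling upstream of ERK, were not called higher with TSA in either genotype. Spry2 (chr14:105891947-105896819, minus strand) stood at 86.7 and 77.8 CPM in wild type cells under DMSO, 63.2 and 63.4 under TSA, and in TKO cells 52.6 and 37.0 under DMSO and 25.8 and 16.4 under TSA. The 4 groups formed a descending series with no overlap. It fell with TSA in TKO cells by 1.09 on the log2 scale (SE 0.20, adjusted p = 0.000904), and the wild type difference of -0.38 ± 0.19 was not called (adjusted p = 0.113). That wild type difference was called without TKO TSA replicate 1 (adjusted p = 0.0483), without TKO TSA replicate 2 (adjusted p = 0.0474) and in a fit of the wild type libraries alone (adjusted p = 0.0214). Spry2 was lower in TKO cells with DMSO with a difference of -0.88 ± 0.19 (adjusted p = 0.00879) and with TSA with a difference of -1.59 ± 0.20 (adjusted p = 0.000526). The DMSO call ended without wild type DMSO replicate 1 (-0.81, adjusted p = 0.0527) or TKO DMSO replicate 2 (-0.64, adjusted p = 0.0970). Between genotypes with DMSO, 4 of 7 fibroblast genes were called lower in TKO cells, as Spry2 was, and 1 higher. Of the 4 mesoderm genes tested 2 were called lower and 0 higher, beside 10.7% and 9.63% of all genes. The markers went against Spry2 with TSA in TKO cells. There 6 of the 7 fibroblast genes and 1 of the 4 mesoderm genes were called higher and 0 lower, beside 30.8% and 27.9%. The part of these markers in the Spry2 result was not tested.

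Spry4 (chr18:38586265-38601268, minus strand) stood at 142 and 172 CPM in wild type DMSO and 152 and 160 CPM in wild type TSA libraries, groups that overlapped. In TKO cells it was 176 and 207 CPM with DMSO and 109 and 76.7 CPM with TSA. The TKO TSA libraries were the lowest of the 8 and the TKO DMSO libraries the highest. Its TSA difference was -0.01 ± 0.15 in wild type (adjusted p = 0.951) and -1.04 ± 0.16 in TKO cells (adjusted p = 0.000217). With TSA it was lower in TKO than in wild type cells with a difference of -0.75 ± 0.16 (adjusted p = 0.00808; -0.51 and adjusted p = 0.0538 without TKO TSA replicate 2), and with DMSO the difference of 0.28 ± 0.15 was not called (adjusted p = 0.232).

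Of the 2 ETS factors, Etv5 moved and Etv4 did not pass the test. Both belong to the PEA3 group, whose transcription ERK activity is known to raise. Etv5 (chr16:22381313-22439570, minus strand) stood at 352 and 366 CPM in wild type cells under DMSO, 258 and 227 under TSA, and in TKO cells 472 and 488 under DMSO and 264 and 218 under TSA. The TSA libraries of the 2 genotypes overlapped, and the TKO DMSO libraries were the highest. Etv5 fell with TSA by 0.56 on the log2 scale in wild type (SE 0.11, adjusted p = 0.00134) and by 0.99 in TKO cells (SE 0.11, adjusted p = 2.59e-05). With DMSO it was higher in TKO cells by 0.42 ± 0.11 (adjusted p = 0.0181), a call that ended without wild type DMSO replicate 1 (0.37, adjusted p = 0.0971), TKO DMSO replicate 1 (0.44, adjusted p = 0.0714) or TKO DMSO replicate 2 (0.39, adjusted p = 0.117). With TSA the genotype difference was -0.01 ± 0.11 (adjusted p = 0.955).

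Etv4 (chr11:101769742-101785310, minus strand) had the narrowest range of the members, with 81.8 and 67.8 CPM in wild type cells under DMSO, 70.9 and 64.8 under TSA, and in TKO cells 63.4 and 67.7 under DMSO and 68.0 and 57.3 under TSA. Its TSA difference was -0.14 ± 0.12 in wild type (adjusted p = 0.350) and -0.07 ± 0.12 in TKO cells (adjusted p = 0.660), and its genotype difference was -0.19 ± 0.12 with DMSO (adjusted p = 0.307) and -0.12 ± 0.12 with TSA (adjusted p = 0.552). Egr1 (chr18:34861207-34864956, plus strand), a zinc finger factor that ERK induces within minutes of a stimulus, was the least abundant member, at 7.91 to 14.0 CPM from 108 to 204 counts per library. It stood at 8.35 and 8.75 CPM in wild type cells under DMSO, 10.9 and 10.5 under TSA, and in TKO cells 14.0 and 10.1 under DMSO and 10.8 and 7.91 under TSA. The wild type groups did not overlap, the TKO groups did, and no difference was called: 0.32 ± 0.21 with TSA in wild type (adjusted p = 0.218), -0.37 ± 0.21 with TSA in TKO cells (adjusted p = 0.146), 0.50 ± 0.21 between genotypes with DMSO (adjusted p = 0.126) and -0.20 ± 0.21 with TSA (adjusted p = 0.547).

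**Figure D2:**
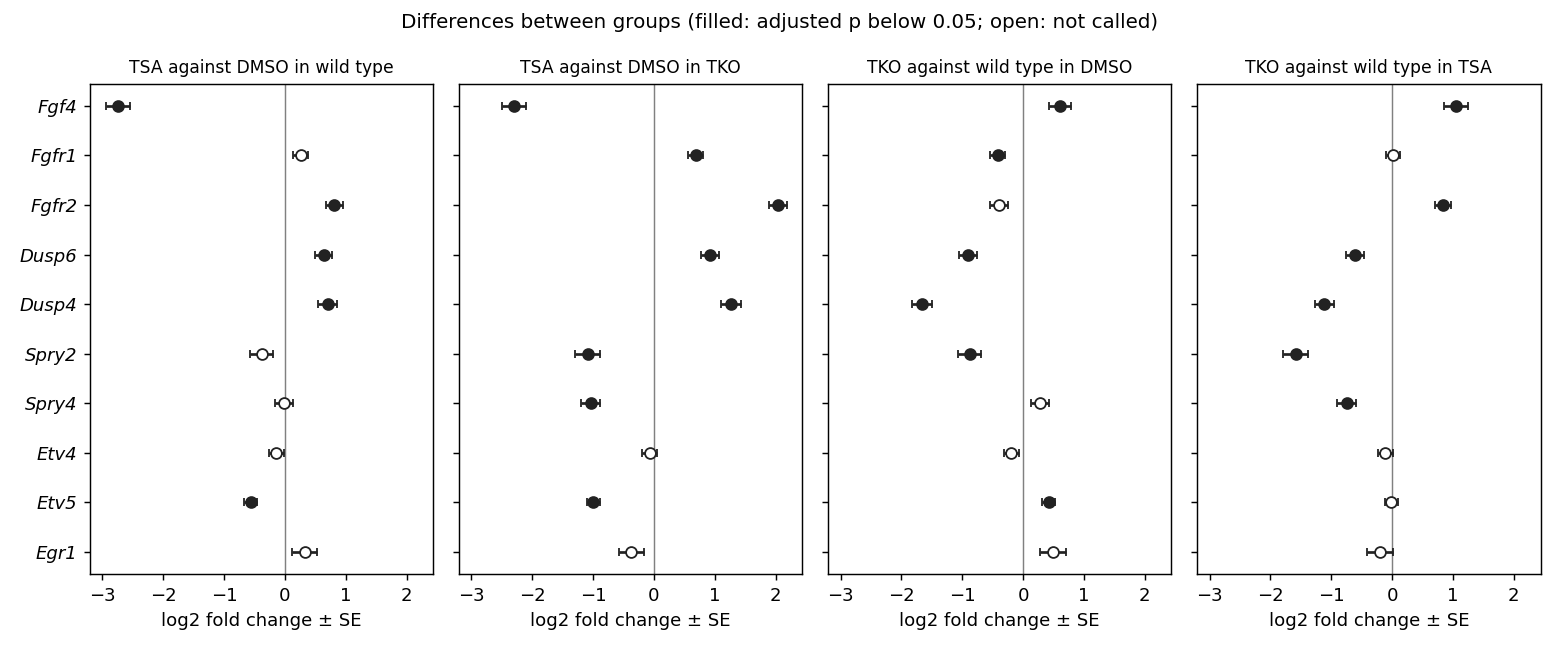
Log2 fold change (horizontal axis, bars are SE) of the 10 genes in 4 comparisons, each from 2 libraries against 2. Filled points were called at an adjusted p below 0.05 and open points were not. Fgf4 lies at -2.75 and -2.30 in the TSA panels, opposite to Fgfr2 at 0.81 and 2.04.

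Read comparison by comparison, the share of members called in 1 direction lay near, above or below the share of all genes called, depending on the comparison and the direction. With TSA in wild type cells 3 of 10 members were called higher, beside 27.0% of all genes tested, and 2 lower, beside 25.9%. With TSA in TKO cells 4 were called higher, beside 30.8%, and 4 lower, beside 27.9%. The median log2 difference of the 10 members was 0.12 in wild type and -0.22 in TKO cells, against 0.01 and 0.04 over all genes tested. With TSA the members moved in both directions, so these medians describe no common shift. The difference between TSA and DMSO moves with the scaling: over all genes its median became 0.22 and 0.19 (wild type and TKO) under total count scaling and 0.16 and 0.11 under upper quartile scaling. Of the 8358 genes called in wild type, 4266 were higher and 4092 lower, and under total count scaling the split was 5812 and 2433. The split in TKO cells went from 4872 higher and 4412 lower to 5908 and 3267.

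Between genotypes with DMSO, 2 members were called higher in TKO cells (Fgf4 and Etv5), beside 9.63% of all genes, and 4 lower (Fgfr1, Dusp6, Dusp4 and Spry2), beside 10.7%. Without wild type DMSO replicate 1, and likewise without TKO DMSO replicate 2, Dusp6 and Dusp4 were the members still called. Such a fit leaves 1 library in a group, and both also called fewer genes over the whole table. Over all alternatives the difference ran from -1.08 to -0.74 for Dusp6 and from -1.90 to -1.41 for Dusp4. With TSA, 2 members were called higher in TKO cells (Fgf4 and Fgfr2), beside 10.0%, and 4 lower (Dusp6, Dusp4, Spry2 and Spry4), beside 8.38%. Without TKO TSA replicate 2, Dusp6 (-0.42) and Spry4 (-0.51) were no longer called, in a fit that also called fewer genes over the whole table. The members' median was -0.29 with DMSO and -0.16 with TSA, against -0.01 and 0.00 over all genes. The genotype and TSA comparisons share libraries, so their values are set side by side and not correlated.

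For both changes together, TKO cells with TSA were set against wild type cells with DMSO. Fgfr2 was the 1 member called higher (1.65 ± 0.14, adjusted p = 5.04e-06), beside 31.7% of all genes, and 5 were called lower, beside 30.2%. Spry2 was lowest at -1.97 ± 0.20 (adjusted p = 1.46e-05), followed by Fgf4 at -1.70 ± 0.19 (adjusted p = 2.44e-05), Spry4 at -0.76 ± 0.16 (adjusted p = 0.00148), Etv5 at -0.58 ± 0.11 (adjusted p = 0.000796) and Dusp4 at -0.41 ± 0.16 (adjusted p = 0.0429). The Dusp4 call ended without wild type DMSO replicate 1 (-0.14, adjusted p = 0.435), either TKO TSA replicate (adjusted p = 0.0831 and 0.142) or either TKO DMSO replicate (adjusted p = 0.0502 and 0.0504). It also ended under total count scaling (-0.24, adjusted p = 0.208), upper quartile scaling (-0.30, adjusted p = 0.112) and limma-voom (-0.39, adjusted p = 0.0517). Dusp6, which rose with TSA and was lower in TKO cells, stood at 0.02 ± 0.14 (adjusted p = 0.897), with 158 and 147 CPM in wild type DMSO against 177 and 133 CPM in TKO TSA libraries. Fgfr1 (0.27 ± 0.12, adjusted p = 0.0738) was called without wild type DMSO replicate 1 (0.42, adjusted p = 0.0199) or TKO TSA replicate 1 (0.38, adjusted p = 0.0382), and under total count scaling (adjusted p = 0.0103) or upper quartile scaling (adjusted p = 0.0180). Etv4 (-0.26 ± 0.12, adjusted p = 0.0891) was called without wild type DMSO replicate 2 (-0.39, adjusted p = 0.0247) or TKO TSA replicate 1 (-0.39, adjusted p = 0.0417). The members' median was -0.33, against 0.00 over all genes.

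Whether the TSA effect itself differed between genotypes was tested by the interaction, which subtracts the wild type effect from the TKO effect. It was called for Fgfr2 in the positive direction, where 0.879% of all genes were called, and for Spry4 in the negative direction, where 0.468% were. For Fgfr2 the difference was 1.22 ± 0.20 (adjusted p = 0.0260), and for Spry4 it was -1.03 ± 0.22 (adjusted p = 0.0478). The Fgfr2 call ended without wild type TSA replicate 1 (1.14, adjusted p = 0.0641), TKO DMSO replicate 1 (1.23, adjusted p = 0.0759), TKO DMSO replicate 2 (1.21, adjusted p = 0.132) or TKO TSA replicate 2 (1.00, adjusted p = 0.0520). The Spry4 call ended without 6 of the 8 libraries in turn, at adjusted p = 0.129 and -0.89 without wild type DMSO replicate 1, 0.100 and -1.07 without wild type TSA replicate 1, 0.0924 and -0.99 without wild type TSA replicate 2, 0.0924 and -1.14 without TKO DMSO replicate 1, 0.220 and -0.91 without TKO DMSO replicate 2, and 0.115 and -0.79 without TKO TSA replicate 2. For the other 8 members the interaction was not called: Spry2 had -0.71 ± 0.28 (adjusted p = 0.265), Egr1 -0.69 ± 0.30 (adjusted p = 0.314), Dusp4 0.55 ± 0.23 (adjusted p = 0.290), Fgf4 0.45 ± 0.27 (adjusted p = 0.489), Fgfr1 0.43 ± 0.17 (adjusted p = 0.286) and Etv5 -0.43 ± 0.15 (adjusted p = 0.212). Dusp6 (0.29 ± 0.20, adjusted p = 0.576) and Etv4 (0.07 ± 0.17, adjusted p = 0.898) were nearest to 0. A p above the threshold does not show that the 2 genotypes responded alike.

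For each pair of related genes the ratio of counts per kilobase was taken in each library. Fgfr2 relative to Fgfr1 was 0.275 and 0.367 in wild type cells under DMSO, 0.417 and 0.517 under TSA, and in TKO cells 0.336 and 0.309 under DMSO and 0.768 and 0.866 under TSA. The TKO TSA libraries came nearest to equal amounts of both receptors. Dusp4 relative to Dusp6 was 0.823 and 0.624 in wild type DMSO and 0.801 and 0.725 in wild type TSA libraries, against 0.413 and 0.446 in TKO libraries under DMSO and 0.484 and 0.615 under TSA. Every TKO library was below every wild type library. Spry2 relative to Spry4 was 1.34 and 0.994 in wild type cells under DMSO, 0.916 and 0.871 under TSA, and in TKO cells 0.659 and 0.394 under DMSO and 0.521 and 0.470 under TSA, again with every TKO library below every wild type library. Etv5 exceeded Etv4 in every library, by 2.63 and 3.30 times in wild type cells under DMSO, 2.23 and 2.14 under TSA, and in TKO cells 4.54 and 4.41 under DMSO and 2.37 and 2.32 under TSA. These ratios are given as descriptions and were not tested.

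**Figure D3:**
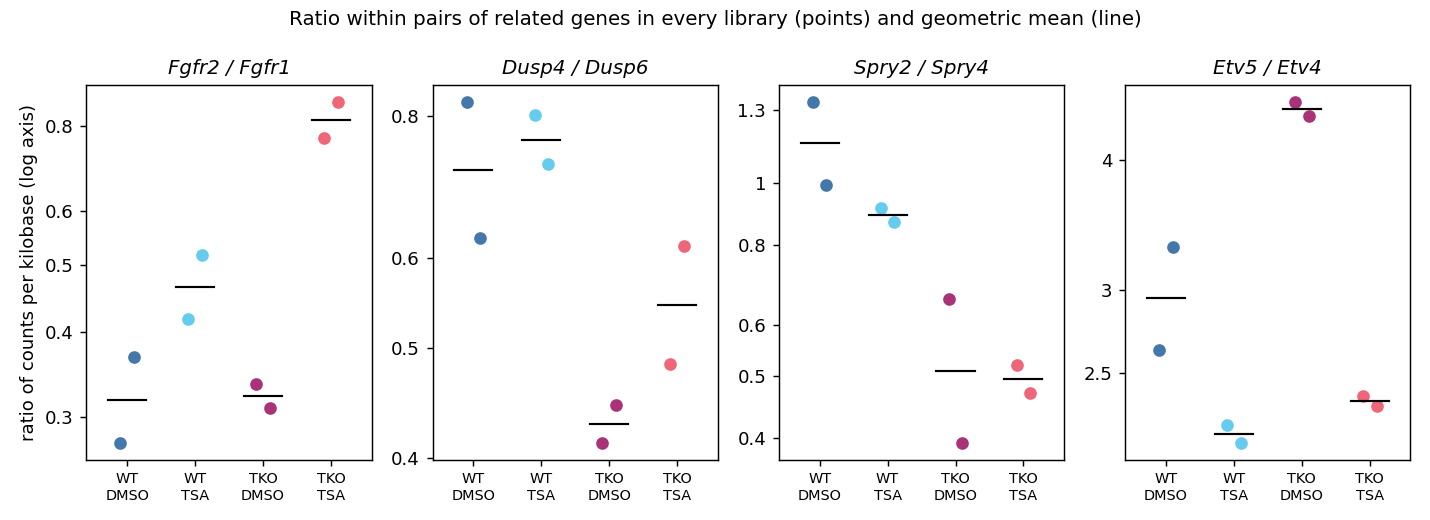
Ratio of counts per kilobase between related genes (vertical axis, log scale) in each of the 8 libraries. Points are libraries and lines are geometric means of 2. Fgfr2 to Fgfr1 is highest in the TKO TSA libraries (0.768 and 0.866), and Dusp4 to Dusp6 and Spry2 to Spry4 are lower in the TKO libraries than in the wild type libraries.

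Over the 8 libraries the members differed in how much they varied. The SD of log2 CPM was 1.43 for Fgf4, 0.93 for Dusp4, 0.83 for Fgfr2 and 0.82 for Spry2, and 0.25 for Egr1 and 0.15 for Etv4. Genes with the pattern most like a member were sought among 11539 genes by the root mean square difference of log2 CPM, each gene centred on its own mean over the 8 libraries. For Fgf4 these were Ripply1 (0.260), Ak7 (0.300) and Hhip (0.384), against a median of 1.31 over all candidates. Ripply1, which encodes a transcriptional co-repressor, went from 7.99 and 12.0 CPM to 0.794 and 1.16 with TSA in wild type cells and from 14.4 and 13.2 CPM to 2.98 and 1.95 in TKO cells. For Dusp6 they were Pkp3 (0.0976), a desmosomal plakophilin, Prmt2 (0.112), a protein arginine methyltransferase that shares 4.09% of its exon bases with Mir678, and Fam114a1 (0.140), against a median of 0.653. For Egr1, which was nearly flat, they were Mfap1b (0.119), Mfap1a (0.121) and Pm20d2 (0.123), against a median of 0.369, and Mfap1a and Mfap1b are near-identical copies whose reads may be split. Among the members the smallest differences were those of Etv4 with Egr1 (0.284), Spry4 with Etv5 (0.319), Fgfr1 with Etv4 (0.325) and Dusp6 with Dusp4 (0.354). Etv4, Egr1 and Fgfr1 had the smallest SDs of the members (0.15, 0.25 and 0.32). Between genes that vary little this measure is small whatever their directions, so their pairs do not show a shared pattern. The 8 points of each pattern share their libraries, so these are descriptions.

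Other genes of the pathway were counted from fixed lists, and the share of each list called is set beside the share of all genes tested as a description. Leaving out a library leaves 1 in its group, and most such fits also called fewer genes over the whole table. A smaller list count in such a fit is therefore not read as a result about the list. Of 21 other FGF ligand genes 14 were expressed enough to be tested. With TSA, 3 (21.4%) were called higher and 4 (28.6%) lower in wild type, close to the 27.0% and 25.9% of all genes. In TKO cells 4 (28.6%) were higher and 5 (35.7%) lower, beside 30.8% and 27.9%. List medians were -0.14 and 0.43. The TKO total of 9 was 5 without TKO TSA replicate 2. Fgf1, a ligand without a classical signal peptide, rose most, from 3.71 and 4.05 to 21.0 and 54.6 CPM in wild type (3.28 ± 0.45, adjusted p = 0.000181) and from 6.84 and 5.39 to 59.9 and 104 CPM in TKO cells (3.74 ± 0.42, adjusted p = 3.02e-05). The steepest falls were those of Fgf10 in wild type, from 2.71 and 4.94 to 0.244 and 0.340 CPM (-3.67 ± 0.50, adjusted p = 0.000177), and Fgf17 in TKO cells, from 25.9 and 29.0 to 2.44 and 1.07 CPM (-3.98 ± 0.45, adjusted p = 3.23e-05).

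Between genotypes, 2 ligand genes (14.3%) were called higher and 0 lower in TKO cells with DMSO, beside 9.63% and 10.7% of all genes, and 3 (21.4%) higher and 1 (7.14%) lower with TSA, beside 10.0% and 8.38%. With DMSO the count was 0 without wild type DMSO replicate 1, TKO DMSO replicate 1 or TKO DMSO replicate 2 and 1 without wild type DMSO replicate 2. With TSA the total of 4 was 0 without wild type TSA replicate 1 or TKO TSA replicate 2 and 1 without either TKO DMSO replicate. Fgf3 (1.37 ± 0.40, adjusted p = 0.0323) led with DMSO and was not called in any fit that left out 1 of the 4 DMSO libraries (adjusted p = 0.166 and 0.0670 for the wild type ones, 0.0863 and 0.160 for the TKO ones). Fgf18 (1.14 ± 0.28, adjusted p = 0.0158) and Fgf15 (-0.999 ± 0.30, adjusted p = 0.0397) led with TSA. Neither was called without wild type TSA replicate 1 (adjusted p = 0.140 and 0.399) or TKO TSA replicate 2 (adjusted p = 0.121 and 0.170), and Fgf15 was not called without TKO TSA replicate 1 (adjusted p = 0.103) or either TKO DMSO replicate (adjusted p = 0.0594 and 0.0585).

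All 16 other receptors and co-receptors were tested, a list that holds Fgfr3, Fgfr4, the Klothos, FLRT proteins, syndecans and glypicans. With TSA, 7 (43.8%) were called higher and 1 (6.25%) lower in wild type, beside 27.0% and 25.9% of all genes. In TKO cells 8 (50.0%) were higher and 0 lower, beside 30.8% and 27.9%, with medians of 0.45 and 0.91 against 0.01 and 0.04 over all genes. The wild type total of 8 was 5 without wild type DMSO replicate 2 and 4 without wild type TSA replicate 2. Sdc4, a syndecan that carries heparan sulphate, rose in wild type from 107 and 95.6 to 252 and 299 CPM (1.44 ± 0.12, adjusted p = 1.66e-05). Flrt2, a transmembrane protein that binds FGF receptors, rose in TKO cells from 4.72 and 2.77 to 11.6 and 16.9 CPM (1.92 ± 0.32, adjusted p = 0.000395). The glypican gene Gpc6 fell in wild type by 1.00 on the log2 scale (SE 0.26, adjusted p = 0.00878). That call ended with DESeq2 (adjusted p = 0.0747) and without wild type TSA replicate 2 (-0.94). Between genotypes 2 (12.5%) were higher and 4 (25.0%) lower in TKO cells with DMSO, beside 9.63% and 10.7% of all genes (3 genes in all without TKO DMSO replicate 2). With TSA 6 (37.5%) were higher and 2 (12.5%) lower, beside 10.0% and 8.38% (3, 5 and 4 in all without wild type TSA replicate 1, wild type TSA replicate 2 and TKO TSA replicate 2). Klb, a co-receptor of hormone-like FGFs, was at 0.285 and 0.567 CPM in wild type and 4.31 and 5.46 CPM in TKO cells with DMSO (3.52 ± 0.42, adjusted p = 0.000287). Its difference with TSA was 2.82 ± 0.40 (adjusted p = 0.000964). Gpc6 was lower in TKO cells, with a difference of -2.30 ± 0.30 with DMSO (adjusted p = 0.000531) and -1.12 ± 0.31 with TSA (adjusted p = 0.0280). The TSA difference was uncalled with DESeq2 (adjusted p = 0.133). It was also uncalled without any 1 of the 4 TSA libraries (-1.05 and -1.19 for the wild type ones, -1.18 and -1.07 for the TKO ones).

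Heparan sulphate synthesis genes were listed together with the sulphatase genes Sulf1 and Sulf2, 11 genes in all, and all were tested. With TSA, 2 (18.2%) were called higher and 6 (54.5%) lower in wild type (median -0.56), beside 27.0% and 25.9% of all genes. In TKO cells 3 (27.3%) were higher and 5 (45.5%) lower (median -0.13), beside 30.8% and 27.9%. Sulf1, an extracellular sulphatase that trims heparan sulphate and dampens FGF signalling, fell from 207 and 162 to 61.3 and 55.5 CPM in wild type (-1.66 ± 0.22, adjusted p = 0.000167) and from 161 and 127 to 45.8 and 25.1 CPM in TKO cells (-2.03 ± 0.23, adjusted p = 3.47e-05). Glce, the epimerase of the chain, rose by 0.69 ± 0.10 in wild type (adjusted p = 0.000198) and by 0.76 ± 0.09 in TKO cells (adjusted p = 6.03e-05). Between genotypes 1 gene (9.09%) was higher and 2 (18.2%) lower in TKO cells with DMSO, beside 9.63% and 10.7% of all genes, and 1 (9.09%) was higher and 1 (9.09%) lower with TSA, close to the 10.0% and 8.38% of all genes. The DMSO total was 1 without wild type DMSO replicate 1 or TKO DMSO replicate 1. The TSA total was 0 without wild type TSA replicate 1 or TKO TSA replicate 2, and 1 without wild type TSA replicate 2 or either TKO DMSO replicate. Hs6st2, a sulphotransferase, was the strongest of these, at 26.7 and 22.9 CPM in wild type and 12.6 and 9.53 CPM in TKO cells with DMSO (-1.16 ± 0.16, adjusted p = 0.000771). Glce was higher in TKO cells by 0.36 ± 0.10 with DMSO (adjusted p = 0.0221) and 0.43 ± 0.09 with TSA (adjusted p = 0.00952). Its DMSO call ended without wild type DMSO replicate 1 (0.24, adjusted p = 0.161) or either TKO DMSO replicate (adjusted p = 0.114 and 0.0998), and its TSA call without wild type TSA replicate 1 (adjusted p = 0.0899) or TKO TSA replicate 2 (adjusted p = 0.0569). Sulf1 was lower in TKO cells with TSA at the edge of the threshold (-0.72 ± 0.23, adjusted p = 0.04997). That call ended without either wild type TSA replicate (adjusted p = 0.198 and 0.0735), either TKO DMSO replicate (adjusted p = 0.0620 and 0.0616) or TKO TSA replicate 2 (-0.35, adjusted p = 0.283).

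The 21 adaptors and kinases of the Ras-ERK cascade were tested in full. Of these, 4 (19.0%) were called higher and 9 (42.9%) lower with TSA in wild type, beside 27.0% and 25.9% of all genes, a total of 13 that was 8 without either wild type TSA replicate. In TKO cells 4 (19.0%) were higher and 6 (28.6%) lower, beside 30.8% and 27.9%. Medians were -0.19 and 0.04. Ksr1, the scaffold of the Raf, MEK and ERK kinases, rose from 9.85 and 12.5 to 19.2 and 26.6 CPM in wild type (1.04 ± 0.21, adjusted p = 0.00217) and from 18.3 and 18.8 to 35.8 and 51.2 CPM in TKO cells (1.23 ± 0.20, adjusted p = 0.000376), with 7.74% of its exon bases shared with Gm11201. The adaptor gene Frs3 fell by 1.04 on the log2 scale in wild type (SE 0.21, adjusted p = 0.00181) and by 1.01 in TKO cells (SE 0.20, adjusted p = 0.00125), with 7.59% of its exon bases shared with Gm14873. Between genotypes with DMSO 2 genes (9.52%) were higher and 2 (9.52%) lower in TKO cells, close to the 9.63% and 10.7% of all genes (2, 2 and 1 in all without wild type DMSO replicate 1, TKO DMSO replicate 1 and TKO DMSO replicate 2). With TSA 5 (23.8%) were higher and 1 (4.76%) lower, beside 10.0% and 8.38% (0 without wild type TSA replicate 1 and 2 without TKO TSA replicate 2). Ksr1 was higher in TKO cells by 0.74 ± 0.22 with DMSO (adjusted p = 0.0347) and 0.93 ± 0.20 with TSA (adjusted p = 0.00869). The DMSO call ended without wild type DMSO replicate 1 (adjusted p = 0.218) or either TKO DMSO replicate (adjusted p = 0.111 and 0.138), and the TSA call without wild type TSA replicate 1 (adjusted p = 0.0838) or TKO TSA replicate 2 (adjusted p = 0.0825). Mapk3, which encodes ERK1, was lower in TKO cells with DMSO, at 17.5 and 20.2 against 30.7 and 33.9 CPM (-0.78 ± 0.13, adjusted p = 0.00229), and with TSA (-0.60 ± 0.14, adjusted p = 0.0115; adjusted p = 0.0857 without wild type TSA replicate 1 and 0.0848 without TKO TSA replicate 2).

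Of 21 other negative regulators 20 were tested. With TSA, 6 (30.0%) were called higher and 3 (15.0%) lower in wild type (median 0.01), beside 27.0% and 25.9% of all genes. In TKO cells 7 (35.0%) were higher and 1 (5.00%) lower (median 0.15), beside 30.8% and 27.9%. The phosphatase gene Dusp2 rose most in wild type, from 1.86 and 1.86 to 4.09 and 6.93 CPM (1.56 ± 0.32, adjusted p = 0.00207), and Dusp8 in TKO cells, from 1.09 and 1.46 to 4.60 and 4.77 CPM (1.88 ± 0.30, adjusted p = 0.000312). Cbl, a ubiquitin ligase that sends receptors to degradation, fell by 0.61 on the log2 scale in wild type (SE 0.11, adjusted p = 0.00116) and by 0.67 in TKO cells (SE 0.11, adjusted p = 0.000506). Between genotypes with DMSO 1 (5.00%) was higher and 6 (30.0%) lower in TKO cells, beside 9.63% and 10.7% of all genes, a total of 7 that was 2, 3 and 2 without wild type DMSO replicate 1, TKO DMSO replicate 1 and TKO DMSO replicate 2. With TSA 4 (20.0%) were higher and 2 (10.0%) lower, beside 10.0% and 8.38%, a total of 6 that was 0 without wild type TSA replicate 1, 2 without TKO TSA replicate 2 and 3 without wild type TSA replicate 2 or either TKO DMSO replicate. Spred3, a Sprouty-related inhibitor of Raf activation, was at 13.3 and 9.56 CPM in wild type and 3.90 and 3.27 CPM in TKO cells with DMSO (-1.67 ± 0.26, adjusted p = 0.00130), and its difference with TSA was -0.96 ± 0.25 (adjusted p = 0.0235; adjusted p = 0.221 without wild type TSA replicate 1 and 0.147 without TKO TSA replicate 2). Rasal2, which encodes a Ras GTPase-activating protein, was the gene called higher with DMSO (0.32 ± 0.10, adjusted p = 0.0385), and that call ended without each of the 8 libraries in turn, at adjusted p from 0.0535 to 0.183. Dusp9, a phosphatase of ERK, was higher in TKO cells with TSA, at 487 and 568 against 342 and 374 CPM (0.56 ± 0.10, adjusted p = 0.00404; adjusted p = 0.0523 without wild type TSA replicate 1).

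Of 24 other ERK-responsive and immediate early genes 22 were tested. With TSA, 8 (36.4%) were called higher and 3 (13.6%) lower in wild type (median 0.16), beside 27.0% and 25.9% of all genes. In TKO cells 10 (45.5%) were higher and 3 (13.6%) lower (median 0.58), beside 30.8% and 27.9%. Fos, a subunit of the AP-1 factor, rose in wild type from 3.50 and 3.81 to 9.89 and 15.2 CPM (1.78 ± 0.26, adjusted p = 0.000274), unlike Egr1, which stayed uncalled. Atf3 rose most in TKO cells, from 4.52 and 4.80 to 17.0 and 27.5 CPM (2.26 ± 0.24, adjusted p = 2.49e-05). Ccnd1, which encodes cyclin D1, fell from 314 and 262 to 124 and 66.8 CPM in wild type (-1.60 ± 0.28, adjusted p = 0.000810) and from 215 and 163 to 47.8 and 27.3 CPM in TKO cells (-2.33 ± 0.29, adjusted p = 6.62e-05). Between genotypes with DMSO 0 were higher and 8 (36.4%) lower in TKO cells, beside 9.63% and 10.7% of all genes (5, 4 and 5 lower without wild type DMSO replicate 1, TKO DMSO replicate 1 and TKO DMSO replicate 2). With TSA 0 were higher and 4 (18.2%) lower, beside 10.0% and 8.38% (2 lower without TKO TSA replicate 2). The list median with DMSO was -0.28, against -0.01 over all genes. Fosl2 was the lowest with DMSO, at 3.28 and 5.75 against 27.1 and 17.0 CPM (-2.30 ± 0.27, adjusted p = 0.000248), and Maff with TSA, at 7.85 and 5.34 against 26.4 and 18.5 CPM (-1.77 ± 0.22, adjusted p = 0.000419). Fibroblast markers moved along with this list in part. Between genotypes 4 of 7 were called lower and 1 higher in TKO cells with DMSO, and 3 lower and 1 higher with TSA. In TKO cells 6 of 7 were called higher with TSA (median 2.91), while in wild type 2 were called higher and 2 lower. Of the 4 mesoderm genes tested 2 were called lower in TKO cells with DMSO. The part of these markers in the differences was not tested.

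**Figure D4:**
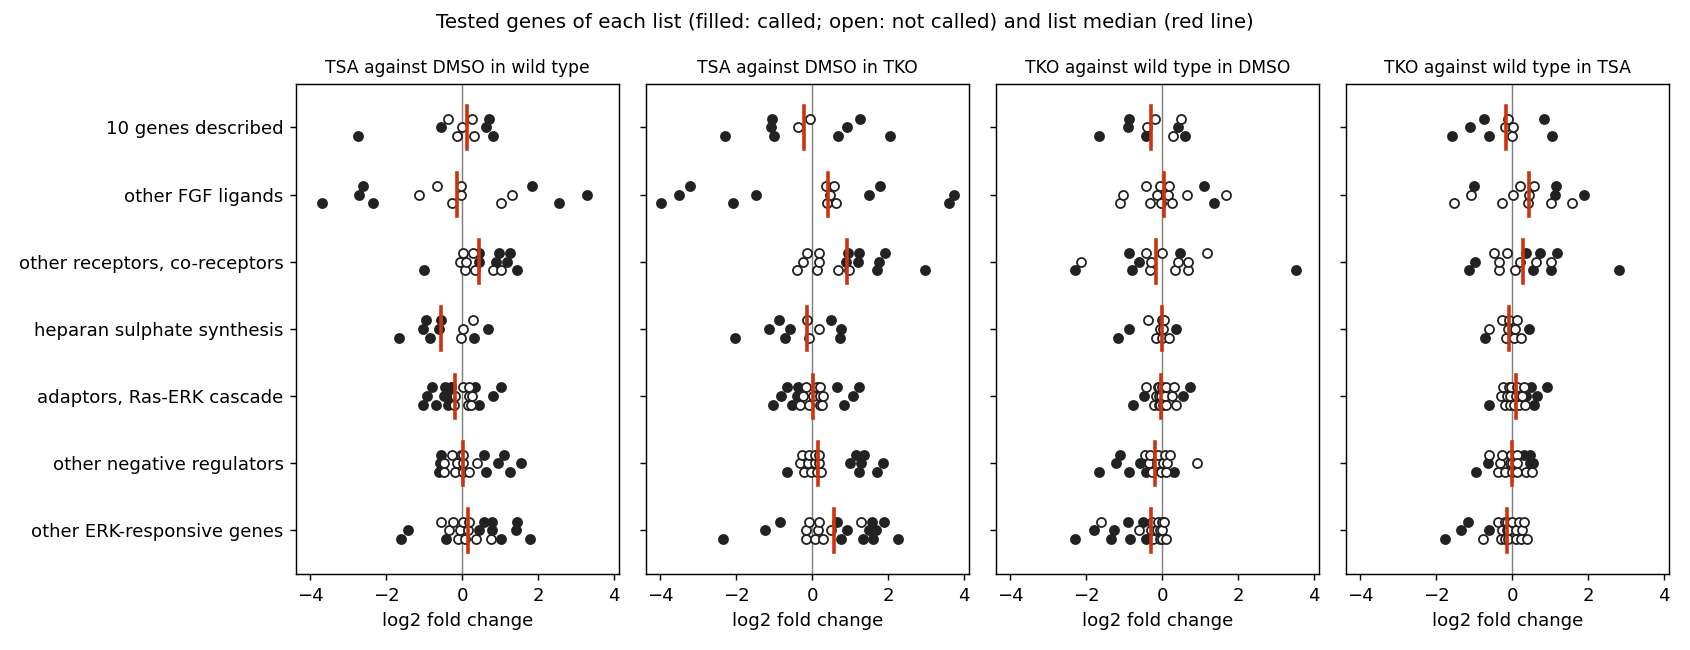
Log2 fold change (horizontal axis) of each tested gene of the 10 described and of 6 further lists in 4 comparisons. Filled points were called, open points were not, and the red line is the list median. Other ERK-responsive genes lie mostly above 0 with TSA in TKO cells (median 0.58) and at or below 0 between genotypes with DMSO (median -0.28).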

How the data were processed

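Per the labels' protocols, total RNA was depleted of ribosomal RNA, and strand-directional libraries were sequenced as paired reads. The authors deposited raw read counts per gene with exon positions and summed exon lengths. The submitters' processing notes name TopHat2 2.0.13, featureCounts 1.4.5-p1, edgeR 3.22.3 and build mm10. Use of strand, multi-mapping reads and the annotation are not given in the sources used here. None of the 10 members shares exon bases with another gene of the table. The test was edgeR 4.0.16 (R 4.3.3) on those counts: after filterByExpr 15822 genes were left, libraries were scaled by TMM, and a quasi-likelihood model with 4 group means was fitted to all 8 libraries (4 residual degrees of freedom, common biological coefficient of variation 10.3%). Tests were two-sided. SEs are approximate, the log2 fold change over the root of its F statistic. The procedure was also run on simulated counts with independent libraries and few changed genes. That setting is simpler than these data, so no result here rests on it. No 2 replicates agreed within sampling noise (chi-square per degree of freedom 5.28 to 12.2), and floors cover counting error only. Beside the members, the text names per pathway list and simple comparison the called gene with the largest rise and fall, at a mean of at least 1 CPM and without overlap between libraries. Likeness used a pseudocount of 0.5 and a mean of at least 5 CPM. Members, lists and rules were chosen with earlier results of these data known. Alternatives were other scalings, filters, DESeq2 1.42.0, limma 3.58.1, a replicate block and leaving out each library.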

Additional observations from a re-analysis of the deposited data

Results flagged for a closer look

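For 2 of the 10 genes the TSA effect differed between genotypes by the interaction test of edgeR. Of all genes tested, 0.879% were called in the positive direction and 0.468% in the negative direction. For Fgfr2 the effect in TKO cells minus that in wild type cells was 1.22 on the log2 scale (adjusted p = 0.0260), and both effects were rises, of 2.04 and 0.81. For Spry4 the same difference was -1.03 (adjusted p = 0.0478), from a TSA effect of -1.04 in TKO cells and of -0.01 in wild type cells. Over the fits that left out 1 library the Fgfr2 difference ran from 1.00 to 1.42 and was not called in 4 of 8. The Spry4 difference ran from -1.30 to -0.79 and was not called in 6 of 8. Most of these fits also called the interaction for fewer genes over the whole table.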

How the results depend on the processing

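Of 31 called differences of the 10 genes outside the interaction, 24 kept their direction and call under all 17 alternatives, and none of the 31 changed sign in any. Of 44 differences named for other pathway genes, 30 did. Fits that left out 1 library left 1 in its group and mostly called fewer genes over the whole table. The number of members called in those fits is therefore not read as a result about the members. The interaction was called for 1 member with a filter of 10 counts in 4 libraries and for 1 with limma-voom. The Spry4 call was missed there (adjusted p = 0.0507 and 0.0576), and the cause was not tested. Over all genes the interaction was called for 209 and 107 in these fits, against 213 in the main fit. Directions that turned belonged to uncalled values near 0. Under total count and upper quartile scaling these were Fgfr1 between genotypes with TSA (-0.020 and -0.028), Spry4 with TSA in wild type (0.19 and 0.14), Etv4 with TSA in wild type (0.062 and 0.0095) and in TKO cells (0.081 and 0.0087), and, under upper quartile scaling, the Etv4 interaction (-0.00080). Spry4 with TSA in wild type was 0.0034 with DESeq2 size factors and 0.0033 with DESeq2. Leaving out 1 library in turn gave ranges across 0 between genotypes with TSA for Fgfr1 (-0.11 to 0.13), Etv4 (-0.24 to 0.0052), Etv5 (-0.16 to 0.12) and Egr1 (-0.43 to 0.0096). Such ranges were also seen for both changes together in Dusp6 (-0.20 to 0.21) and Egr1 (-0.11 to 0.33), for TSA in Spry4 in wild type (-0.15 to 0.12) and Etv4 in TKO cells (-0.20 to 0.051), and for the Etv4 interaction (-0.058 to 0.20). The labels do not say what a replicate number marks. Deviations of same-numbered libraries correlated at 0.0586 to 0.366 across genes, above 0.1 in 5 of 6 pairs of groups. The numbers were to be taken as pairs only if all 6 lay above 0.1, so the model without the block was kept. With the replicate number as a block, 6 and 8 members were called with TSA in wild type and TKO cells, 7 and 6 between genotypes with DMSO and TSA, 7 for both changes and 2 for the interaction. The block raised the calls over all genes too. With TSA they went from 8358 to 9256 in wild type and from 9284 to 10039 in TKO cells. Between genotypes they went from 3221 to 4217 with DMSO and from 2910 to 4097 with TSA. For both changes they went from 9793 to 10413, and for the interaction from 213 to 633. Calls added by the block were Spry2 with TSA in wild type (adjusted p = 0.0319), Fgfr2 between genotypes with DMSO (adjusted p = 0.0347) and Etv4 for both changes (adjusted p = 0.0464), and the block moved the count of other receptors called between genotypes with DMSO from 6 to 10 and of heparan sulphate genes with TSA from 2 to 4. The count of ligand genes called between genotypes, 2 with DMSO, was 0 with DESeq2, and the 4 with TSA became 2 with DESeq2, limma-voom, total count scaling, upper quartile scaling and the stricter filter and 1 in a fit of the compared groups alone. The 2 heparan sulphate genes called there with TSA became 1 with DESeq2, the stricter filter and the compared groups alone. Depth limits the lowest genes: Egr1 rests on 108 to 204 counts per library.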
